A study of Caenorhabditis elegans with 36 samples.

Results

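RNA of repeat families was compared between young adult Caenorhabditis elegans carrying the nip2_nip3 genotype and wild type (wt), with 3 libraries in each group. The 6 libraries were chosen by their labelled genotype, out of 36 samples in the study, and every repeat family in the table was considered, whatever its level. The table held 403 families, of which 201 had enough counts to be tested. The study asked whether candidate genes take part in passing RNA silencing from parents to offspring. The labels name the genotypes but give neither the genes nor the nature of the mutations. The other RNA genotypes drawn on below were the triple mutant nip1_nip2_nip3 (3 libraries), the nip3 alleles qe17 (3 libraries) and qe20 (2 libraries), nip2_tb1609 (3 libraries), nip1_tb1601 (2 libraries) and nip1_nip2 (1 library, in no comparison). Plates seeded with HB101 bacteria at 20 degrees were used for all of them. Nothing states that the libraries came from separate cultures, so the p-values cover the spread between these libraries alone, and that spread may be technical. The table holds no protein-coding genes, so neither the mutated genes nor tissue markers could be checked in it. In whole animals, fewer cells of a type and less RNA per cell cannot be told apart.

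Repeat families are groups of similar sequences scattered over the genome, most of them remnants of transposable elements. LTR retrotransposons copy themselves through an RNA intermediate and are flanked by long terminal repeats. In worms they carry the name Cer, and the table counts the internal part (I) apart from the flanking part (LTR). DNA transposons such as Tc1, Mirage and Turmoil move through a transposase that cuts and pastes the element. In the worm germ line, Argonaute proteins loaded with small RNAs hold many of these elements silent, and loss of silencing factors is known to raise the RNA of some of them.

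The 6 libraries held 50405 to 86725 counts on repeat families. Values below are normalised counts, that is, counts divided by the effective size of the library and scaled to the mean effective size of 72752. The families differ in annotated length, so levels are compared between families only per kilobase. Among these 6, nip2_nip3 replicate 1 stood apart from the rest. In nip2_nip3 replicate 1, the tRNA-derived SINE family CELE45 took 59.0% of all counts, against 3.12% and 4.56% in nip2_nip3 replicates 2 and 3, and 14.0%, 9.38% and 7.39% in the wt libraries. Simple repeats took 2.88% of its counts, against 37.4% and 27.7% in the other nip2_nip3 libraries and 30.0% to 41.6% in wt. In that library 11 families lay more than 3-fold above both other nip2_nip3 libraries, counted over families with at least 20 counts in it. Another 11 lay more than 3-fold below both, counted over families with at least 20 counts in each of the others. Results that rest on this library are given with and without it. A high CELE45 share was not limited to it among the other mutant libraries used below. There the share ran from 3.08% in nip3_qe17 replicate 3 to 50.7% in nip3_qe20 replicate 2, with 42.3% in nip2_tb1609 replicate 1. CELE45 itself did not pass the test, with a log2 fold change of 1.63 (SE 1.22, edgeR adjusted p = 0.534), and its direction turned to -1.60 without nip2_nip3 replicate 1.

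**Figure D1:**
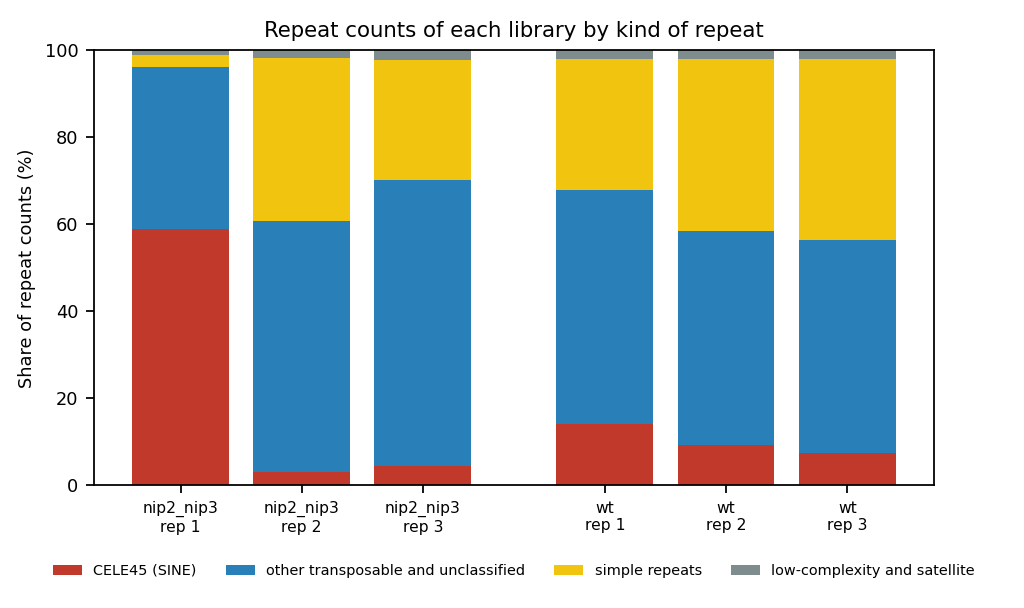
Share of the repeat counts of each library (%, vertical axis) by kind of repeat, for the 3 nip2_nip3 libraries and the 3 wt libraries. CELE45 takes 59.0% in nip2_nip3 replicate 1 and at most 14.0% in the other 5 libraries, while simple repeats take 2.88% there.

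Across all families, few differed between nip2_nip3 and wt. With edgeR's quasi-likelihood test and an adjusted p under 0.05, 9 of the 201 tested families (4.48%) were called. Of these, 6 were higher in nip2_nip3 (2.99%) and 3 were lower (1.49%). At an unadjusted p under 0.05 there were 22 higher and 10 lower. The median log2 fold change over all tested families was -0.03. Groups did not overlap in 23 families with nip2_nip3 above wt and in 24 with nip2_nip3 below wt. The called families were MIRAGE1, CER9-I, CER2-1-LTR, CER6-I, CER12-LTR and TR5, which were higher, and Turmoil2, CER15-I and RC123, which were lower.

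**Figure D2:**
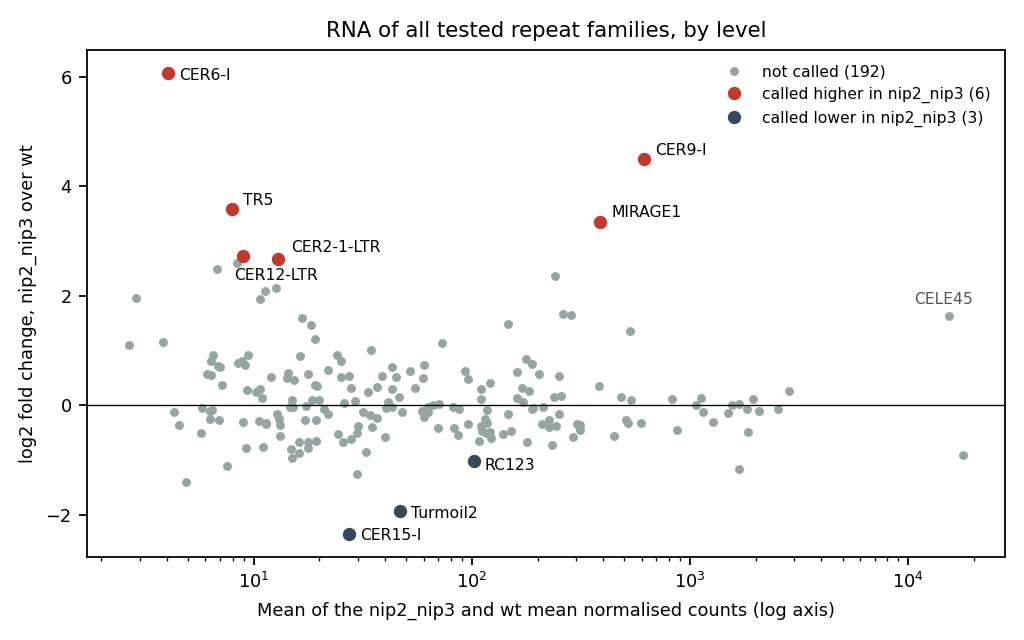
Log2 fold change of nip2_nip3 over wt (vertical axis) against the mean normalised count of the 2 groups (horizontal log axis) for each of the 201 tested families. Grey points were not called, red points were called higher in nip2_nip3 (6) and dark points lower (3). MIRAGE1 and CER9-I are the only called families with a mean above 200 on this axis, and CELE45 lies far to the right without a call.

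MIRAGE1, a DNA transposon family of the CMC superfamily, had 295, 1150.4 and 675 normalised counts in the nip2_nip3 libraries, against 71.5, 70.4 and 65.6 in the wt libraries. All 3 mutant libraries lay well above all wt libraries, and the wt libraries lay close together. The means were 707 ± 429 in nip2_nip3 and 69.2 ± 3.13 in wt (SD, n = 3 each), a 10.2-fold rise. The log2 fold change was 3.35 (SE 0.42, edgeR adjusted p = 0.000152). Per kilobase of annotated sequence, MIRAGE1 averaged 13.9 normalised counts in nip2_nip3 and 1.36 in wt.

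MIRAGE1 is annotated at 51 places in the ce11 build and covers 50856 bp. Of these copies, 6 are close to full length, at 5617 to 5625 bp, and the rest are fragments. These long copies, of nearly equal length, lie on chromosomes II, IV and V. One spans chromosome IV from 701905 to 707528, inside the bounds of the protein-coding gene cutl-26. Another spans chromosome IV from 507687 to 513308, inside pig-1, and a further one, on chromosome V from 765783 to 771399, lies inside str-238. The longest copy, on chromosome V from 3325117 to 3330741, overlaps no annotated gene. Exon and intron positions were not used here. How alike the sequences of the copies are was not examined. Counts are given per family and not per copy, so the rise is a value of the family. The MIRAGE1 counts may also hold reads of cutl-26, pig-1 and str-238, since the strand setting of the counting is not given.

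CER9-I, the internal part of a Pao-type LTR retrotransposon, had 779, 1699 and 1065 normalised counts in the nip2_nip3 libraries, against 46.8, 61.3 and 48.4 in the wt libraries. The groups were far apart, with the lowest mutant library above the highest wt library by more than 10-fold. The means were 1181 ± 471 in nip2_nip3 and 52.2 ± 7.98 in wt (SD, n = 3 each), a 22.5-fold rise with a log2 fold change of 4.49 (SE 0.84, edgeR adjusted p = 0.00497). Per kilobase the level was 15.5 in nip2_nip3 and 0.686 in wt. The flanking part, CER9-LTR, had 17.9, 9.39 and 10.2 normalised counts in nip2_nip3 and 5.35, 5.26 and 8.72 in wt. These groups did not overlap either, but the log2 fold change of 0.91 (SE 0.54) did not pass the test (edgeR adjusted p = 0.434).

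CER9-I is annotated at 56 places and covers 76056 bp, with 22 copies on chromosome V, 20 on X and 12 on II. The 4 longest copies measure 7934 to 13904 bp. The longest spans 13904 bp on chromosome X from 7349880 to 7363783 and overlaps the pseudogene C07D8.2. The next spans chromosome III from 13230129 to 13242682, with 12554 bp, and overlaps the protein-coding gene Y43F4A.3. That copy is flanked on both sides by CER9-LTR copies of 517 bp. The table gives no count per copy, so which of them gave the RNA is not known. The CER9-I counts may also hold reads of Y43F4A.3 and C07D8.2.

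Against wt, MIRAGE1 and CER9-I kept their calls under each of the 18 alternative settings. The log2 fold changes were 2.80 to 3.79 for MIRAGE1 and 4.13 to 4.79 for CER9-I. Without nip2_nip3 replicate 1 the values were 3.79 for MIRAGE1 and 4.79 for CER9-I.

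The other families that rose had low counts, and none of them was tested when only the 2 groups were fitted. CER2-1-LTR, the flanking part of a Pao-type element, had 16.6, 24.6 and 26.0 normalised counts in nip2_nip3 and 2.67, 2.63 and 4.80 in wt. Every mutant library lay above every wt library, and the log2 fold change was 2.67 (SE 0.56, edgeR adjusted p = 0.00937). The call was lost without wt replicate 2. CER2-1-LTR has 8 annotated copies, 5 of them on chromosome IV.

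CER6-I, the internal part of a Gypsy-type LTR retrotransposon, had 3, 11 and 8 counts in the nip2_nip3 libraries and 0 in each wt library. All wt libraries were therefore below all mutant libraries, at few counts. With the wt group set to a floor of 3 summed counts, its level was at least 7.4-fold higher in nip2_nip3 (edgeR adjusted p = 0.0106). Intervals and floors here cover counting error only. The call was lost without wt replicate 2. Its flanking part, CER6-LTR, had 1, 5 and 6 counts in nip2_nip3 and 0, 3 and 1 in wt, too few for a test. The longest CER6-I copy spans chromosome III from 4043053 to 4047727 and overlaps the pseudogene E03A3.1, whose reads the CER6-I counts may hold.

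CER12-LTR, the flanking part of another Pao-type element, had 24.2, 9.39 and 13.5 normalised counts in nip2_nip3 and 2.67, 2.63 and 1.31 in wt, with no overlap. The log2 fold change was 2.73 (SE 0.68, edgeR adjusted p = 0.0271). Its highest value was in nip2_nip3 replicate 1, and without that library the log2 fold change was 2.35 with an edgeR adjusted p of 0.103. The call was also lost with any single wt library left out. Its internal part, CER12-I, had 1, 2 and 1 counts in nip2_nip3 and 0 in each wt library, too few for a test.

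TR5, an unclassified repeat, had 23, 5 and 9 counts in the nip2_nip3 libraries and 1, 2 and 0 in the wt libraries. The mutant libraries lay above the wt libraries, most of all replicate 1. The ratio of the summed counts, scaled for library size, was 12.5 with a 95% counting interval of 3.94 to 63.1 (edgeR adjusted p = 0.0355 for the fitted change). Without nip2_nip3 replicate 1 the adjusted p was 0.172, and the call was also lost with any single wt library left out. TR5 has 3 copies, all on chromosome IV. The main one, from 4114466 to 4116119, overlaps F49F1.2, F49F1.3, F49F1.4 and F49F1.15, so its counts may hold reads of those genes. A CER2-1-LTR copy lies 9757 bp from it, at 4125876 to 4126475. TR5, CELE45, and NeSL-4_CRem and IR4 below, were picked for description after their values were seen.

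Of the 3 families that fell, Turmoil2 had the smallest p. Turmoil2, a PIF-Harbinger DNA transposon, had 19.1, 23.0 and 15.8 normalised counts in nip2_nip3 and 61.5, 65.7 and 95.5 in wt. Every mutant library lay below every wt library. The means were 19.3 ± 3.58 in nip2_nip3 and 74.2 ± 18.5 in wt (SD, n = 3 each), and the log2 fold change was -1.93 (SE 0.34, edgeR adjusted p = 0.00369). The call held under each of the 17 alternative settings that tested it. Turmoil2 is annotated once, over 6999 bp on the minus strand of chromosome V from 17641680 to 17648678. This single copy overlaps the protein-coding gene fbxa-192, and since the strand setting of the counting is not given, RNA of the element and of that gene cannot be told apart. The related family Turmoil1, with 11 annotated copies, had 3426, 2177 and 1800 normalised counts in nip2_nip3 and 3326, 2068 and 2354 in wt. These overlapped throughout, at a log2 fold change of -0.07 (SE 0.41, edgeR adjusted p = 0.956).

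CER15-I, the internal part of a Pao-type element, had 14.7, 5.22 and 6.21 normalised counts in nip2_nip3 and 53.5, 48.2 and 36.0 in wt. The groups did not overlap, and the log2 fold change was -2.35 (SE 0.48, edgeR adjusted p = 0.00915). It thus fell while the internal part of CER9 rose. The call was lost when only the 2 groups were fitted, and without nip2_nip3 replicate 3, wt replicate 1 or wt replicate 2. A single copy of 10798 bp on chromosome V, from 17146845 to 17157642, makes up 80.9% of its annotated length. This copy overlaps F40D4.13, F40D4.14, F40D4.17 and the piRNA locus 21ur-12557, so the CER15-I counts may hold reads of those genes.

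RC123, a satellite repeat spread over 700 places on all chromosomes, had 54.2, 71.3 and 76.8 normalised counts in nip2_nip3 and 137, 138 and 135 in wt. The wt libraries were nearly equal and all mutant libraries lay below them. The log2 fold change was -1.02 (SE 0.23, edgeR adjusted p = 0.0113). Without nip2_nip3 replicate 1 it was -0.82 with an edgeR adjusted p of 0.115. The call was also lost with any single wt library left out, with library totals (edgeR adjusted p = 0.382) and with a required mean of 50 counts. RC123 was the only called family that is neither a transposable element nor unclassified.

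**Figure D3:**
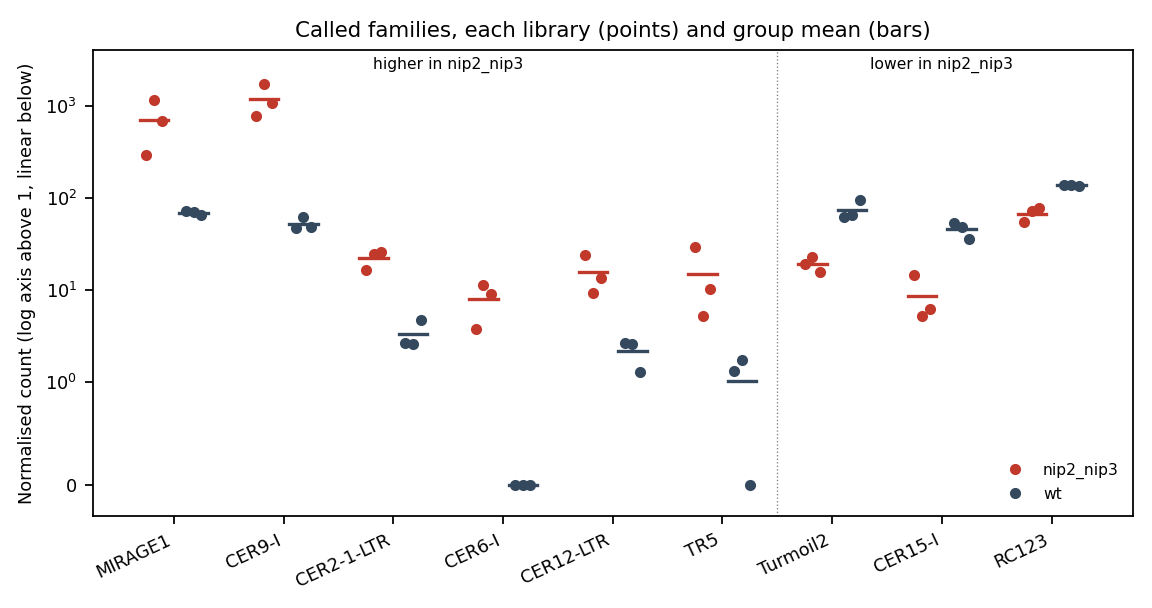
Normalised counts of the 9 called families in each nip2_nip3 library (red) and each wt library (dark), on an axis that is logarithmic above 1 and linear below. Points are libraries and bars are group means. The groups do not overlap in any of the 9, CER6-I is at 0 in all wt libraries, and MIRAGE1 and CER9-I have the highest mutant levels.

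The families just outside the threshold were NeSL-4_CRem, a LINE-type element, and CEMUDR1, a MuDR-type DNA transposon. CEMUDR1 had 461, 1097 and 722 normalised counts in nip2_nip3 and 276, 290.3 and 327 in wt. The groups did not overlap, but the log2 fold change of 1.35 (SE 0.40) had an edgeR adjusted p of 0.0761. Without nip2_nip3 replicate 1 it was 1.68 with an edgeR adjusted p of 0.026. CEMUDR1 was also called with DESeq2 (adjusted p = 0.0141) and with edgeR under RLE scaling (0.0421), counts rounded down (0.0487), CELE45 left out before scaling (0.0439) or nip3_qe17 replicate 1 left out (0.0108). NeSL-4_CRem averaged 17.3 ± 8.85 normalised counts in nip2_nip3 and 42.2 ± 4.23 in wt (SD, n = 3 each), at a log2 fold change of -1.26 and an edgeR adjusted p of 0.0664. Its 5 copies cover 455 bp in all.

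Among classes of repeats, the LTR retrotransposons held 5 of the 9 calls. Of these 5, CER9-I alone kept its call in every alternative setting. Of 27 tested Cer families, 4 were called higher and 1 lower, against 6 higher (2.99%) and 3 lower (1.49%) of all 201 families. Of the 27 Cer families, 20 had a log2 fold change above 0, against 99 of all 201 families. Their median log2 fold change was 0.81, against -0.03 over all families. Without nip2_nip3 replicate 1, in which CER3-1-LTR, CER10-I, CER10-LTR, CER16-LTR and CER16-1-LTR were more than 3-fold above both other mutant libraries, the median was 0.52, against 0.03 over all families. Pao-type families had 3 higher and 1 lower of 19, with a median of 0.81 (0.46 without nip2_nip3 replicate 1). Gypsy-type families had 1 higher of 9, with a median of 0.73 (0.52 without that library). Families entered the test by their counts over all 19 RNA libraries. Cer families near 0 in wt, such as CER6-I, could therefore enter through mutant libraries where they were high. That can tilt these counts and medians upward, and internal and LTR parts of an element count as separate families.

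Not all Cer families shared this direction. CER1, a Gypsy-type element whose particles are known from the worm gonad, had 787, 2343 and 1452 normalised counts in nip2_nip3 and 2305, 1860.0 and 2252 in wt. Its groups overlapped, at a log2 fold change of -0.49 (SE 0.40, edgeR adjusted p = 0.534), and its LTR had -0.45 (edgeR adjusted p = 0.534). CER15-1-I, a relative of CER15-I by name, had 199.6, 303 and 229.6 normalised counts in nip2_nip3 and 151, 157 and 184 in wt, at a log2 fold change of 0.58 (edgeR adjusted p = 0.177). It was called higher without nip2_nip3 replicate 1 (log2 fold change 0.77, edgeR adjusted p = 0.0451) and with DESeq2 (adjusted p = 0.0333). CER17-I varied widely within the mutant group, with 16.6, 733 and 328 normalised counts in nip2_nip3 and 366, 503 and 731 in wt.

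No family of the large DNA transposon classes TcMar (33 tested), hAT (20) and PiggyBac (5), of LINEs (14) or of Helitrons (10) was called by edgeR. At an unadjusted p under 0.05 there were 2 TcMar families and 1 Helitron higher, and 1 hAT family and 1 LINE lower. DESeq2 called 1 LINE, NeSL-4_CRem, lower among them. Class medians were -0.07 for TcMar, -0.13 for hAT, -0.20 for Helitrons and 0.07 for LINEs. Without nip2_nip3 replicate 1 they were -0.09 for TcMar, -0.02 for hAT, -0.03 for Helitrons and 0.33 for LINEs. The TcMar median was 0.02 with DESeq2 or RLE scaling. The classes Mirage and Harbinger were split. MIRAGE1 was called higher, while the other 2 Mirage families had log2 fold changes of -0.81 and -0.97. In Harbinger, Turmoil2 was called lower and Turmoil1 was not called.

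Some Tc elements are known to transpose in the germ line of silencing mutants. Of the 9 tested families named Tc1 to Tc6, edgeR called 0, and none had an unadjusted p under 0.05 or a call with DESeq2. Their log2 fold changes ran from -0.79 for TC5, through 0.53 for Tc1, to 0.63 for TC4. Groups did not overlap in TC5 and TC2, which had lower values in nip2_nip3, and in Tc1A. Over all 201 tested families they did not overlap in 47. The Tc1-related family Tc1A had 3170.4, 2718 and 3344 normalised counts in nip2_nip3 and 2567, 2462 and 2712 in wt. The mutant libraries lay above the wt libraries, but the log2 fold change was 0.25 (SE 0.26, edgeR adjusted p = 0.617), with a 95% interval of -0.30 to 0.81. Tc3 had 101, 118 and 123 normalised counts in nip2_nip3 and 113, 100.5 and 103 in wt, with overlapping groups and a 95% interval of -0.28 to 0.49. The telomere-type simple repeat had 97.5, 84.5 and 72.2 normalised counts in nip2_nip3 and 115, 74.5 and 77.6 in wt, again overlapping (log2 fold change -0.07, 95% interval -0.71 to 0.58).

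**Figure D4:**
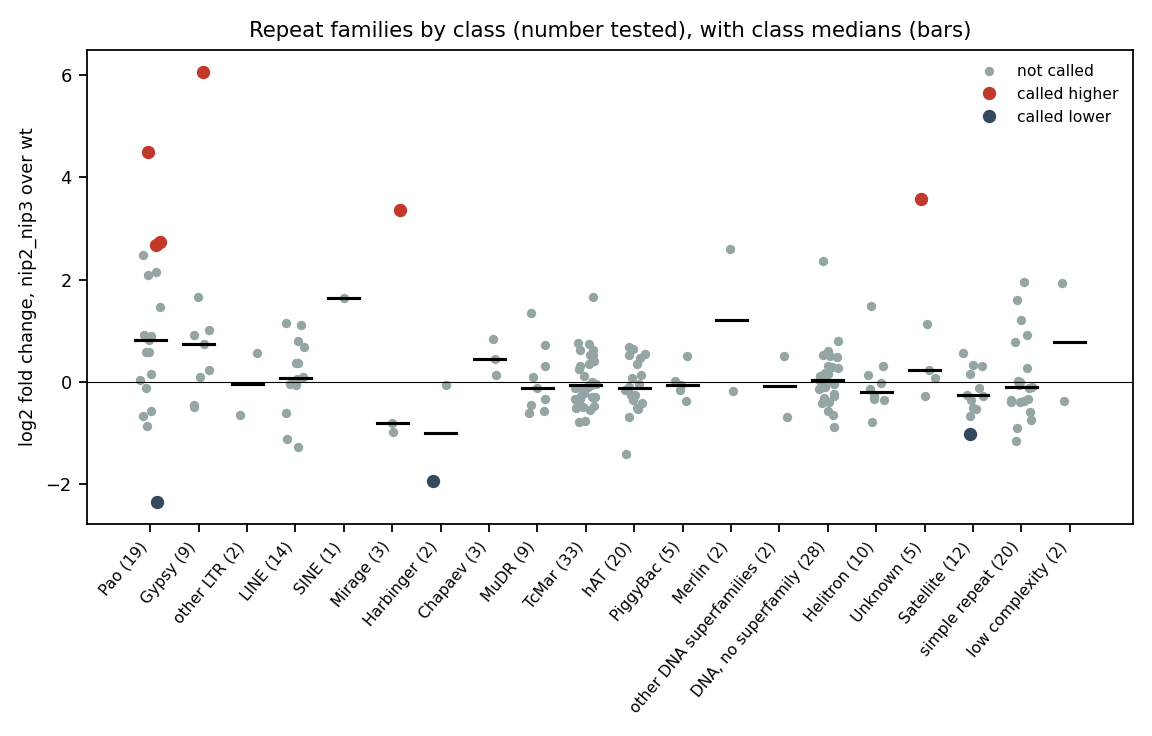
Log2 fold change of nip2_nip3 over wt (vertical axis) for each tested family, grouped by class, with the number tested in brackets and class medians as bars. Pao (median 0.81) and Gypsy (0.73) sit above 0, while TcMar, hAT and Helitrons have medians just under 0 (TcMar 0.02 with DESeq2 or RLE scaling).

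The 202 families left out of the test had at most 35.2 counts summed over the 6 libraries. Of these, 94 were at 0 in all of them. A further 18 had counts only in nip2_nip3 and 20 only in wt.

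The double mutant was also tested directly against single mutants. These comparisons share the nip2_nip3 libraries with the comparison against wt, so they are set side by side and not counted as separate support. Against nip3_qe17, edgeR called 2 families higher (0.995% of 201) and 0 lower (0%). At an unadjusted p under 0.05 there were 6 higher and 3 lower, and DESeq2 also called 0 lower. Against nip2_tb1609, edgeR called 2 higher and 0 lower. At an unadjusted p under 0.05 there were 11 higher and 6 lower, and DESeq2 called 6 higher and 0 lower.

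MIRAGE1 was called higher in nip2_nip3 against both single mutants tested, nip3_qe17 and nip2_tb1609. It had 82.7, 70.3 and 151 normalised counts in nip3_qe17, 80.8 and 63.6 in nip3_qe20, 42.9, 75.7 and 72.7 in nip2_tb1609, and 86.5 and 66.6 in nip1_tb1601. All of these lay below the lowest nip2_nip3 library, which had 295. The log2 fold change of nip2_nip3 was 2.80 over nip3_qe17 (SE 0.41, edgeR adjusted p = 0.000928) and 3.47 over nip2_tb1609 (SE 0.42, edgeR adjusted p = 0.000105). MIRAGE1 was not called over nip3_qe17 when only the 2 groups were fitted. The triple mutant nip1_nip2_nip3, which by its label also carries nip2 and nip3, had 119, 116 and 109. Those values too lay below every nip2_nip3 library, a difference that was not tested.

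CER9-I had another pattern over genotypes. It was high in the triple mutant, with 690.4, 1359 and 985 normalised counts, and in nip3_qe20, with 999 and 347. In nip3_qe17 the values were 44.8, 716 and 1369, so that replicate 1 lay at the level of wt and the other libraries far above it. In nip2_tb1609 it had 46.6, 93.1 and 90.5, and in nip1_tb1601 37.5 and 41.0. The single nip1_nip2 library had 1252, although its label does not name nip3. Libraries of genotypes with nip3 in the name were above 300 except nip3_qe17 replicate 1, and the single mutants of nip1 and nip2 were below 100. The log2 fold change of nip2_nip3 was 3.94 over nip2_tb1609 (SE 0.81, edgeR adjusted p = 0.0202), and 0.74 over nip3_qe17 (95% interval -0.79 to 2.27, edgeR adjusted p = 0.857). Without nip2_nip3 replicate 2, or any single nip2_tb1609 library, only 1 family stayed called higher over nip2_tb1609. MIRAGE1, CER9-I or both thus lost the call in each of those fits.

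Turmoil2 was also low in the single mutants of nip2, at 21.9, 12.8 and 22 normalised counts, and of nip1, at 21.6 and 12.8. It had 80.2, 43.3 and 56.8 in the triple mutant, 26.2, 41.6 and 49.7 in nip3_qe17, and 75.8 and 92.8 in nip3_qe20, which lay in the range of wt. Directly, nip2_nip3 had a log2 fold change of 0.03 over nip2_tb1609 (95% interval -0.71 to 0.77) and -1.01 over nip3_qe17 (edgeR adjusted p = 0.446). CER15-I was below the lowest wt library, which had 36.0, in every mutant library, from 4.33 in the triple mutant to 32.5 in nip1_tb1601.

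IR4, a DNA element with no superfamily, was the other call against nip3_qe17. It had 47.2, 84.2 and 77.7 normalised counts in nip2_nip3 and 33.4, 29.9 and 30.9 in nip3_qe17, a log2 fold change of 1.15 (SE 0.24, edgeR adjusted p = 0.0248). It was 49.3, 51.4 and 48.4 in wt, so nip2_nip3 replicate 1 lay below the wt libraries and the other mutant libraries above them. With the replicate number as a block IR4 was no longer called against nip3_qe17, which left 1 call.

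**Figure D5:**
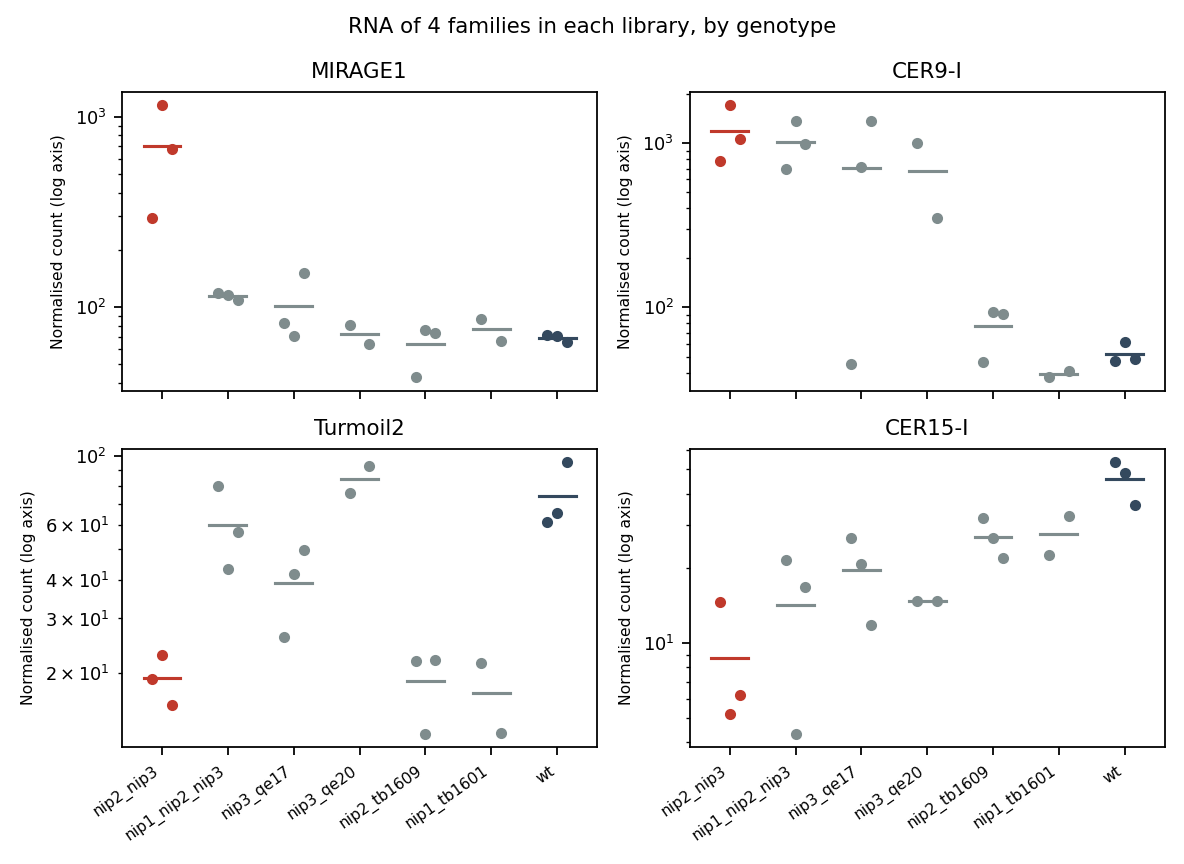
Normalised counts (log axis) of MIRAGE1, CER9-I, Turmoil2 and CER15-I in each library of 7 genotypes, with nip2_nip3 at the left in red, the other mutants in grey and wt at the right in dark. Points are libraries and bars are genotype means. MIRAGE1 is highest in nip2_nip3, CER9-I is high in most libraries whose label holds nip3, and Turmoil2 is low in nip2_nip3, nip2_tb1609 and nip1_tb1601.

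Small RNAs of the same families had been sequenced from young adults of nip2nip3 (3 libraries), nip3_qe17 (3 libraries) and wt (2 libraries). They are given as CPM scaled with the gene table. In nip2nip3 against wt, edgeR called 149 of 219 tested families (68%), of which 43 were higher (19.6%) and 106 lower (48.4%), with a median log2 fold change of -0.41. The split depends on the scaling. Within the repeat table it was 72 higher and 74 lower, with DESeq2 66 and 68, and with library totals 17 and 133. Most families thus changed in small RNA, so the 6 small RNA calls among 8 families called in RNA lie near the background share.

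Small RNAs of MIRAGE1 were lower, at 138, 151 and 160.4 CPM in nip2nip3 and 298 and 350.5 CPM in wt (log2 fold change -1.11, edgeR adjusted p = 5.53e-06). They were lower still in nip3_qe17, at 66.6, 84.2 and 80.4 CPM, where MIRAGE1 RNA was 70.3 to 151 normalised counts. Turmoil2 small RNAs were higher, at 811, 869 and 830.0 CPM in nip2nip3 and 279 and 279 CPM in wt (log2 fold change 1.58, edgeR adjusted p = 1.92e-08). In nip3_qe17 they were 186, 195 and 186 CPM. The directions at MIRAGE1 and Turmoil2 were the same under each of the 5 scalings run.

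Small RNAs of CER9-I were 5312, 5209.9 and 5527 CPM in nip2nip3 and 3897 and 4596 CPM in wt, a log2 fold change of 0.33 (edgeR adjusted p = 0.00781). With library totals it was 0.04 and not called, so a fall in small RNA was not seen at this family. CER2-1-LTR had a log2 fold change of -2.06, CER12-LTR of -1.61 and RC123 of -1.47 in small RNA, all called lower by edgeR (adjusted p = 5.73e-06, 2.77e-07 and 1.8e-07). CER6-I (0.28) and CER15-I (-0.04) were not called, though both were called higher with scaling within the repeat table. TR5 had at most 0.406 CPM in any nip2nip3 library and was not tested.

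Across the 8 called families with a small RNA test, 3 had higher RNA and lower small RNA, and 1 had higher values of both. One more had lower RNA and higher small RNA, 1 had lower values of both, and 2 had no small RNA call. Over the 175 families tested in both, the 2 log2 fold changes had a Pearson r of -0.10 and a Spearman rho of -0.08, a description across families whose values share the same libraries.

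Small RNA counts were also read at the 3 genes that hold a near full-length MIRAGE1 copy. At cutl-26 they were 14.0, 11.1 and 13.5 CPM in nip2nip3, 0.172, 0.0976 and 0.0918 CPM in nip3_qe17, and 0 and 0.472 CPM in wt. The 3 nip2nip3 libraries thus stood far above the rest at this gene. At pig-1 they were 149.8, 139.6 and 145 CPM in nip2nip3 and 192 and 170.5 CPM in wt, and at str-238 no more than 2.54 CPM in any library. These are descriptions with no test, and the gene table does not say where in the gene the small RNAs lie.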

How the data were processed

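Per the labels' protocols, RNA was taken with Trizol and DNase and the NEB NEXT Ultra kit was used for libraries. Per the submitters' processing notes, STAR aligned the reads to ce11 and featureCounts counted them, cutadapt trimmed the small RNA reads, and DESeq2 was used. Their versions, strand setting and treatment of reads with several positions are not given in the sources used here. The deposited tables hold estimated counts per family, some of them with fractions, and these were rounded to whole numbers.

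In R 4.3.3, 19 RNA libraries of 7 genotypes were fitted together with edgeR 4.0.16 (quasi-likelihood F-test, filterByExpr, TMM within the repeat table, Benjamini-Hochberg adjustment over all tested families). The fit left out the single nip1_nip2 library. Small RNA families were scaled with TMM factors of the gene table. In the 8 small RNA libraries, genes had 6362077 to 10962202 counts in all. Files were read with data.table, version 1.17.8, limma 3.58.1 came with edgeR, and alternatives used DESeq2 1.42.0. Genes overlapping a copy were taken from RefSeq's WBcel235 annotation.

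Same-numbered libraries deviated together for nip2_nip3 and nip2_tb1609 (r = 0.739, 0.479 and 0.41). Replicate 1 of both groups was rich in CELE45 (59% and 42.3% of counts), and whether the numbers mark pairs was not tested. The values over nip2_tb1609 given above come from the fit without a block. With the replicate number as a block, the calls against nip2_tb1609 were 2 higher and 0 lower, as without it. For nip2_nip3 and wt the values were of mixed sign (r = 0.372, -0.0662 and 0.295), and the numbers were not taken as pairs.

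Named were called families averaging at least 20 counts with no overlap of the groups, the 2 highest families of each class, parts of called LTR elements, and a list of known elements (73 families, 55 tested, 5 higher, 2 lower, median log2 fold change 0.23). Which of them are printed, the members and the lists were chosen with earlier results of these data known. The test was also run on counts simulated from its own fitted spread, with planted changes. That simulation held no library set apart like nip2_nip3 replicate 1, so it does not cover such a library. No 2 libraries held the same values.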

Additional observations from a re-analysis of the deposited data

Results flagged for a closer look

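The single nip1_nip2 library, which entered no comparison, had all 6 families called higher in nip2_nip3 above every wt library. These 6 had been called against the same wt libraries, and only families called higher were looked up in it. How many of all tested families lay above every wt library there was not counted, so no background share can be set beside the 6. CER9-I had 1252 normalised counts in it, against at most 61.3 in wt. MIRAGE1 had 92.4, against at most 71.5 in wt, which was far below the lowest nip2_nip3 library. CER2-1-LTR had 23.3, against at most 4.80 in wt, and CER12-LTR had 12.2, against at most 2.67 in wt. TR5 had 11.1, against at most 1.75 in wt, and CER6-I had 10.004, while it was at 0 in wt. By its label this genotype does not hold nip3, and the single mutants of nip1 and nip2 had CER9-I below 100. With 1 library there is no test, and a mix-up of labels was not tested.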

How the results depend on the processing

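The low depth, 50405 to 86725 counts on repeats in a library, limits what can be seen in families of few counts. MIRAGE1, CER9-I and Turmoil2 kept their calls against wt in all alternatives that tested them, while the other 6 called families lost theirs in at least 1. Among 66 named families that were not called, 1122 of 1133 alternative values stayed without a call, 11 were called, and no called value reversed. Leaving out the libraries with over 50% of their counts in CELE45, leaving out CELE45, and leaving out nip3_qe17 replicate 1 were chosen after seeing the data.

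Against wt, requiring a mean of 50 counts gave 2 higher and 0 lower (fewer families tested). A fit of only the 2 groups gave 2 higher, MIRAGE1 and CER9-I. CER2-1-LTR, CER6-I, CER12-LTR and TR5 were not tested in either setting, so these settings neither kept nor lost their calls. Those families entered the main test by their counts over all RNA libraries of the fit. Leaving out a library gave 2 to 8 higher and 1 to 4 lower, with 2 higher and 1 lower without wt replicate 2 and 1 lower without wt replicate 1. With the replicate number as a block, 6 were higher and 3 lower, the same families. RLE scaling put the median of all families at 0.08, against -0.03 as reported.

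Against nip3_qe17, 1 family was higher with library totals (median -0.29), without a low-count filter, with a required mean of 50 counts and with the replicate block, and 0 with only the 2 groups. Leaving out a library gave 1 to 2 higher and 0 lower, with 1 higher without nip2_nip3 replicate 2 or 3 or any single nip3_qe17 library. The numbers do not pair these libraries (r = -0.464, -0.758 and 0.24).

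Against nip2_tb1609, 6 were higher with DESeq2 and with library totals (median 0.33), 5 with RLE scaling, without a filter, with transposable and unclassified families only, with counts rounded down and without CELE45. It was 4 higher and 2 lower without the libraries rich in CELE45, and 7 higher without nip3_qe17 replicate 1. Leaving out a library gave 1 to 4 higher and 0 lower, with 4 without nip2_nip3 replicate 1 and 1 without nip2_nip3 replicate 2 or any single nip2_tb1609 library.

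In small RNA, 66 were higher and 68 lower with DESeq2, 17 higher with library totals and 72 higher with TMM within the repeat table. Leaving out a library gave 32 to 39 higher and 99 to 102 lower. For each of these counts, the cause was not tested.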
